A study of Mus musculus with 9 samples.

Results

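The 9 long non-coding RNA genes of the mouse that carried many peaks of the nuclear protein SAFB are described here: 2610307P16Rik, Gm14005, 9330185C12Rik, 6030443J06Rik, 2610037D02Rik, Gm2164, Gm38825, 5730419F03Rik and 4933412E12Rik. They were chosen by their high number of peaks among non-coding genes or, for the shortest of them, by peaks per kb in this same list, so their counts and densities are descriptions and carry no test. A peak belonged to a gene when its midpoint lay in the annotated gene body on the same strand. These 9 of 10155 long non-coding genes held 151 of the 30998 peaks of the series.

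RNA was recovered by immunoprecipitation (RIP-seq) from sonicated lysates of male CAST/B6 Rosa26-RMCE mouse embryonic stem cells, all of them given doxycycline for 3 days. The 9 libraries were SAFB1 antibody in Safb1/2 double-knockout clones (2), FLAG antibody in a double-knockout clone with a plasmid for full-length SAFB1 (1), FLAG antibody in the same clone with an eGFP plasmid (1), SAFB1 antibody in wild-type cells (3, the parent line and 2 clones) and IgG in wild-type cells (2). The genotype label of the library with the SAFB1 plasmid reads WT, but the title says double knockout, which was followed. What was analysed is 1 list of stranded peak positions for all libraries, with the score of 500 in every peak and no value per library, so no comparison of antibodies or genotypes could be made, depth is unknown, and there are no replicates of any value. Cell identity could not be checked from positions alone. Of 10 stem cell marker genes 3 held a peak (Esrrb, Tfcp2l1 and Zfp42), as did 2 of 8 markers of primitive endoderm or fibroblasts (Gata4 and Sox7). The markers without a peak included Pou5f1, Nanog, Sox2 and Klf4. The share of all genes with a peak is not given here, so neither count can be called high or low.

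SAFB proteins bind RNA in the nucleus, where they meet transcripts that are still unspliced, and they have been described to prefer purine-rich sequence. Long non-coding RNAs are transcribed like messenger RNAs but encode no known protein. Many are spliced, though not all, and many are kept in the nucleus. Most of the 9 genes have only a clone-based or number-based name. The exception is Gm14005, which RefSeq lists as Morrbid, an RNA known for regulating the neighbouring gene Bcl2l11 in short-lived myeloid cells. Intron sequence is part of such a transcript before splicing.

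Of the 151 peaks, 148 had their midpoint in an intron, and only 3 lay in an exon. The sequence under these 3 is shown because it is the part of the peaks that the reference transcripts hold. Each line gives 300 bases around the middle of the peak, read 5′ to 3′ on the strand of the gene from GENCODE M21 transcripts (GRCm38, the assembly of mm10). Capitals mark 4 motifs of purines, searched on the strand of the transcript with overlaps counted. The first is AGAAGA and the next is GAAGAA, followed by the motif AAGAAG and lastly by the motif GAGAAG.
2610037D02Rik, first exon block, chr15:96283166-96283465, minus strand: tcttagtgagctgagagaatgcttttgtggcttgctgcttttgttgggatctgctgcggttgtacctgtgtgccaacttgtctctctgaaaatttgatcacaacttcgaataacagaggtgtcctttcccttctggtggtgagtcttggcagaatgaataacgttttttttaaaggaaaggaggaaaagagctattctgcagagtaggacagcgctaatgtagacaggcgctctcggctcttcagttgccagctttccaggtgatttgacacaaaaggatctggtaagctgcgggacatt
5730419F03Rik, last exon, chr1:78595606-78595905, minus strand: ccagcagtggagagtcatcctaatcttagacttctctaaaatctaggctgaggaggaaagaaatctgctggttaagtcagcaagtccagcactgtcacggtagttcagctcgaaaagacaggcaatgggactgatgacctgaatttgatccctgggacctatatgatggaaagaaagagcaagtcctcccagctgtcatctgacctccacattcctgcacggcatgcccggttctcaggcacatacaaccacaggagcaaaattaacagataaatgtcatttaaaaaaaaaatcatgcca
4933412E12Rik, last exon, chr10:116962505-116962804, plus strand: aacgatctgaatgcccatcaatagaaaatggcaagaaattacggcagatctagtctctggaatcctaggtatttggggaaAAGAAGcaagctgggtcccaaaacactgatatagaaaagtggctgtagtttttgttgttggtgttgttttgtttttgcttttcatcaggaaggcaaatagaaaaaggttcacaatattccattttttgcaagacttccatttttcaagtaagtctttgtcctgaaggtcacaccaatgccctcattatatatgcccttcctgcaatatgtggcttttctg

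The window of 4933412E12Rik held 1 of the motifs, and those of 2610037D02Rik and 5730419F03Rik held 0. At least 1 motif was found in 54.2% of the 262 windows of 300 bases under exonic peaks of other long non-coding genes. On the opposite strand, 5730419F03Rik held 1 motif, against 24.8% of those windows with at least 1. Over the whole peak the counts were 8 in the 1749 transcribed bases of 5730419F03Rik (4.57 per kb), 6 in the 1250 of 4933412E12Rik (4.80 per kb) and 0 in the 501 of 2610037D02Rik. The 416 exonic peaks of other long non-coding genes had a median of 3.13 motifs per kb (quartiles 0 and 5.98). Both peaks with motifs thus lay between that median and the upper quartile.

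The stretches of 100 bases richest in these motifs within the peaks of 5730419F03Rik and 4933412E12Rik were picked for their count and are shown to place it, with the same capitals.
5730419F03Rik, chr1:78595913-78596012, minus strand, 4 motifs: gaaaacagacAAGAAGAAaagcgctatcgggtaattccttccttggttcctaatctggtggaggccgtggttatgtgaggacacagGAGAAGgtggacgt
4933412E12Rik, chr10:116962495-116962594, plus strand, 3 motifs: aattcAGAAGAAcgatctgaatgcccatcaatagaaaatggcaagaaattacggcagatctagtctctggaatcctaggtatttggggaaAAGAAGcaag

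Adenine and guanine, the purines, made up 54.0% of the transcribed bases under the exonic peak of 5730419F03Rik, 51.3% in 2610037D02Rik and 48.5% in 4933412E12Rik. The rest of each transcript, outside the peak, had 49.6% in 5730419F03Rik (343 bases), 51.7% in 2610037D02Rik (2496 bases) and 51.3% in 4933412E12Rik (448 bases). The peak was thus richer in purines than the rest in 5730419F03Rik and poorer in 4933412E12Rik, where it takes 83.6% and 73.6% of the transcript and leaves little to set it against. This comparison was chosen after the data were seen, and the difference was not tested. Other exonic peaks of long non-coding genes had a median of 52.7% (quartiles 50.0 and 55.9%). The other 148 peaks lie in introns, whose sequence was not used here.

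The plot of peaks along the 9 genes shows how they were spread. Together the bodies span 1446 kb, and the peaks covered from 4.27% of 6030443J06Rik to 31.6% of 5730419F03Rik. With each body cut into 3 parts of equal length, the first, middle and last parts held 52, 49 and 50 peaks, an even share over the set. Single genes were less even, as given for each below.

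**Figure D1:**
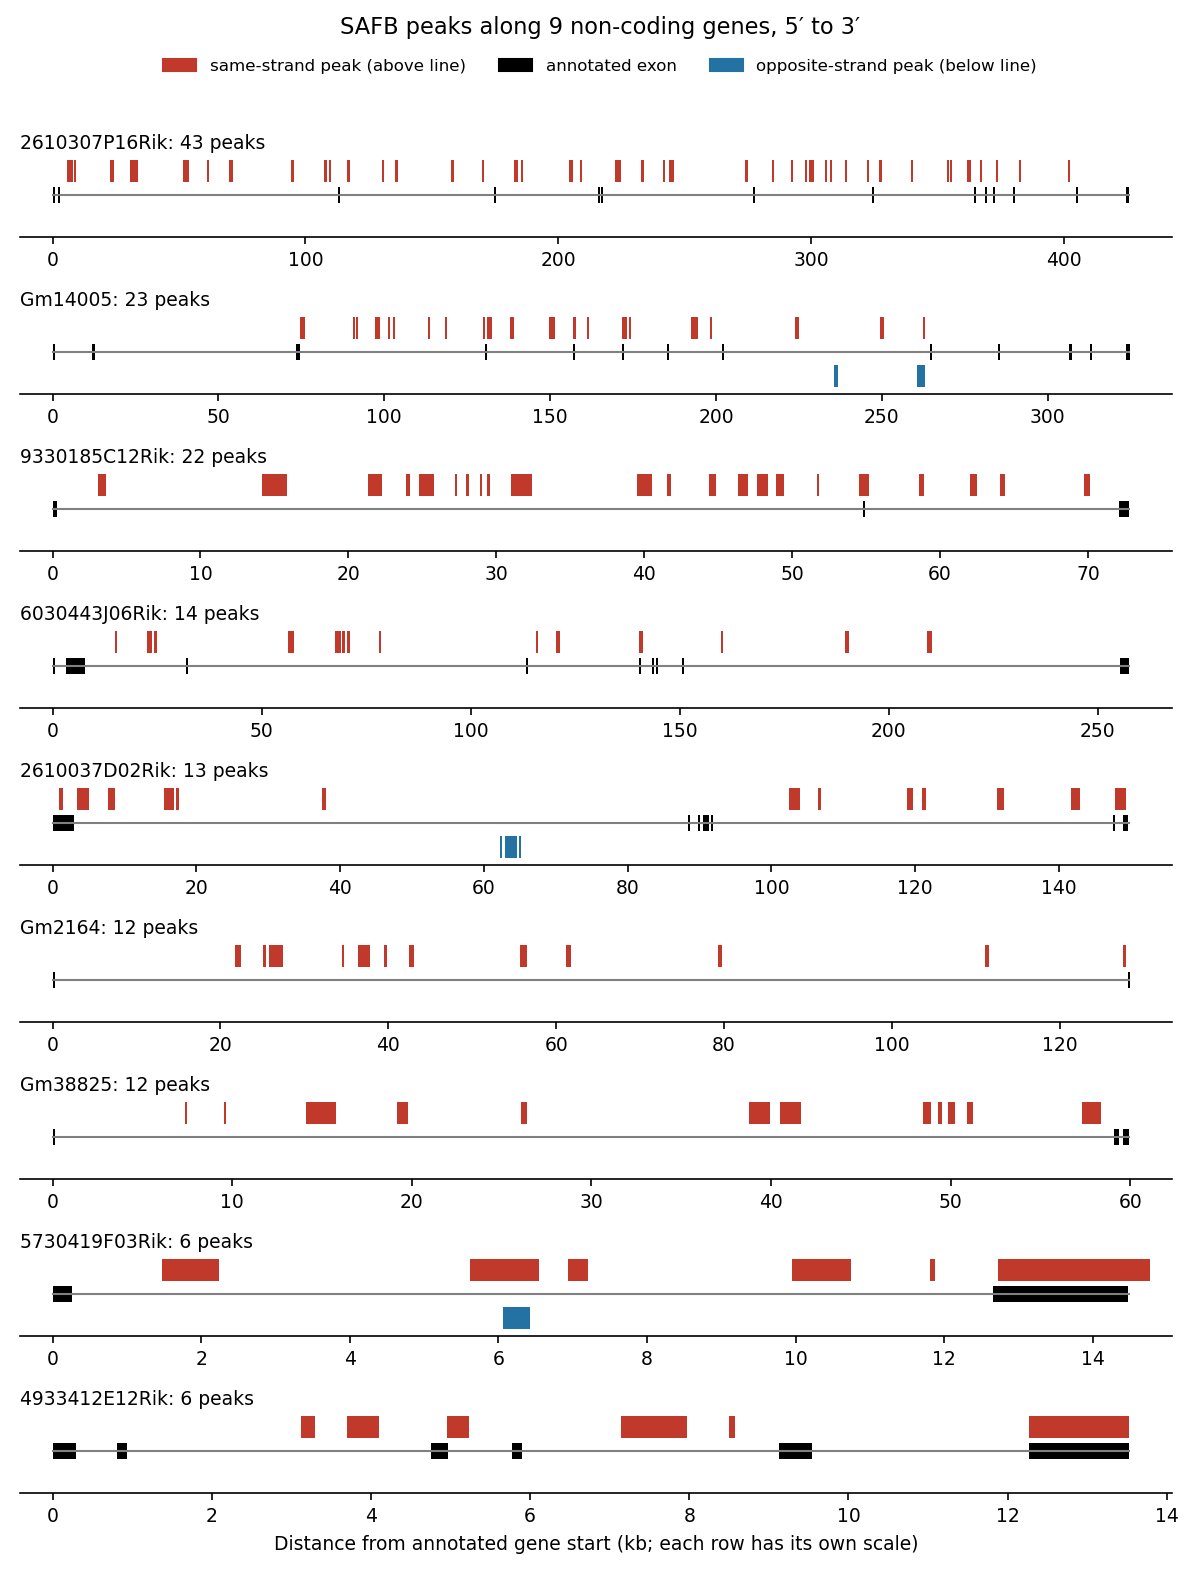
Positions of SAFB peaks along the 9 genes, drawn 5′ to 3′ with the distance from the annotated gene start in kb on an own scale in each row. Red boxes above the line are same-strand peaks, black boxes annotated exons and blue boxes below the line opposite-strand peaks. Peaks are spread over most of the length of 2610307P16Rik, covering 8.09% of it, while the first 75.4 kb of Gm14005 and the middle part of 2610037D02Rik are empty on the sense strand.

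A trio of the genes start far from any protein-coding gene and held the most peaks. 2610307P16Rik (ENSMUSG00000085936.7, chr13:28460034-28885620, minus strand) is the longest, at 426 kb with 14 exon blocks, and the protein-coding gene nearest to its start is Sox4, a transcription factor gene 63.3 kb upstream. It held 43 peaks, all intronic, or 0.101 per kb. They ran from 6.95 to 402 kb from the gene start, with 14, 12 and 17 in the first, middle and last part, and 9 of its 13 introns had at least 1. No intron held more than 11 of them, and that one, intron 2, is 111 kb long. Only 1 of its 7 annotated transcripts, the one spanning 425 kb, contains all 43 peaks. Its widest peak, at 3004 bases, is the widest of the 151 and lies 32.1 kb from the start. The longest stretch between neighbouring peaks was 28.1 kb. Mir6368, a microRNA gene within the body on the same strand, held no peak.

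Gm14005 (ENSMUSG00000074813.13, chr2:128178319-128502765, minus strand) held 23 peaks, all intronic, over 324 kb (0.0709 per kb). The first 75.4 kb of the annotated body had none. Of its 10 annotated transcripts, 9 start within 500 bases of position 128428893, which is 73.9 kb inside the body, and the first peak lies 1.54 kb downstream of that position. The remaining transcript starts at the gene's outer end and overlaps 9 of the 23 peaks further in. RefSeq's Morrbid model (chr2:128298663-128429351) contains 18 of the peaks, with 0 upstream of it and 5 downstream of its end. The last 61.8 kb of the GENCODE body were also without a peak. Peak widths were 103 to 2108 bases, with a median of 631. Downstream, on the other strand, Bcl2l11, which encodes the pro-apoptotic protein BIM, lies 15.8 kb from the end of Gm14005 and held 3 sense peaks in 36.5 kb.

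9330185C12Rik (ENSMUSG00000097648.1, chr1:113891385-113964134, minus strand) was denser, with 22 peaks in 72.8 kb (0.302 per kb) that covered 17.2% of the body. It lies in a gene desert, with Dsel 2026 kb downstream and Cntnap5a, a contactin-associated protein gene, 1721 kb upstream as the nearest protein-coding genes. Its single annotated transcript has 3 exons and 2 introns. The first intron, 54.5 kb long, held 17 of the peaks, and the second the other 5. They stood closest between 21.8 and 31.7 kb from the start, where there were 8, with widths of 115 to 1373 bases. The median gap was 1566 bases, the shortest among the genes with 12 or more peaks here.

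Of the 9 genes, 5 start within 5 kb of the start of a protein-coding gene on the other strand. That share was 42.6% among the 54 long non-coding genes with at least 5 peaks and 20.5% among all 10155. These 5 are 6030443J06Rik, 2610037D02Rik, Gm2164, Gm38825 and 4933412E12Rik. The pairs of Gm2164, Gm38825 and 4933412E12Rik overlap, but no sense peak of these genes lies in the stretch shared with the partner. Where a gene on the other strand overlaps elsewhere, the strand given in the peak list decides the gene a peak was counted for.

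6030443J06Rik (ENSMUSG00000097207.7, chr5:22550432-22807850, plus strand) starts 3 bases from Orc5, which encodes a subunit of the origin recognition complex. Its 14 peaks, all intronic, lay between 15.2 and 210 kb of a 257 kb body, the sparsest of the 9 at 0.0544 per kb. The 3 parts held 8, 4 and 2, so most were in the first. RefSeq's model of this gene is 7.76 kb long and contains none of the 14, all of which lie beyond its end, and 1 of 5 GENCODE transcripts contains them all. The last peak, at 210 kb, also lies in Lhfpl3 on the same strand and cannot be assigned to one of them. Orc5 held 2 sense peaks, 22.2 and 40.8 kb from the start of 6030443J06Rik.

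2610037D02Rik (ENSMUSG00000097536.2, chr15:96134819-96284495, minus strand) starts 3023 bases from Arid2, which encodes a subunit of a SWI/SNF chromatin remodelling complex. It held 13 peaks in 150 kb, 6 in the first part, 0 in the middle part and 7 in the last part. Between the sixth and the seventh there were 64.4 kb without a sense peak, the longest such stretch in any of the 9 genes. RefSeq's model (chr15:96190474-96197974) lies within that stretch and contains no peak. On the opposite strand the same stretch held 3 peaks of 224, 1701 and 291 bases, 62.4 to 65.0 kb from the start of 2610037D02Rik, where no gene of their strand is annotated. The exonic peak, 501 bases wide and wholly inside the first exon block, lies 1.18 kb from the gene start. The sixth peak also lies in 4833422M21Rik, a non-coding gene on the same strand. Peaks were wide here, with a median of 966 bases against 596 in the whole list.

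Gm2164 (ENSMUSG00000098760.1, chr4:124528924-124657169, minus strand) overlaps the start of Pou3f1, a POU transcription factor gene that held no peak, and their starts are 362 bases apart. All 12 peaks lay in its single intron of 128 kb, with 7, 3 and 2 in the 3 parts. The first was 22.1 kb from the gene start. The closest group, 7 peaks between 22.1 and 42.7 kb, was followed by 5 that were up to 31.2 kb apart. The last one lay 0.51 kb before the annotated end. RefSeq's model, 135 kb long, contains these 12.

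Gm38825 (ENSMUSG00000107799.1, chr6:67179799-67239710, minus strand) overlaps Serbp1, an mRNA-binding protein gene whose start is 1534 bases away. It held 12 peaks in 59.9 kb (0.200 per kb), all of them in intron 1, which is 59.0 kb long. The 3 parts held 4, 2 and 6. There were 4 peaks between 48.7 and 51.1 kb from the start, and widths ran from 74 to 1663 bases. RefSeq's model of the gene is 8.01 kb long and contains 1 of the 12, the other 11 lying upstream of it. Serbp1 held 1 sense peak, 19.2 kb upstream of Gm38825.

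4933412E12Rik (ENSMUSG00000112627.1, chr10:116949757-116963279, plus strand) starts inside Rab3ip, an exchange factor gene for Rab proteins, 1012 bases from its start. It is the shortest of the 9, at 13.5 kb, and had the highest density, with 6 peaks or 0.444 per kb. The first 5 were intronic, between 3.21 and 8.54 kb from the start. The sixth, chr10:116962029-116963279, has the bounds of the last exon (chr10:116962030-116963279) to within 1 base. It was also the widest, with 1251 bases, while the median of the 6 was 336. Rab3ip held 2 sense peaks, the widest of them 3146 bases. Gm10271, a protein-coding gene on the opposite strand (chr10:116956824-116972609), overlaps the fourth to the sixth peak of 4933412E12Rik and held no sense peak. Those peaks were counted for 4933412E12Rik by their strand.

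5730419F03Rik (ENSMUSG00000099364.1, chr1:78595031-78609508, minus strand) is the other short gene, with 6 peaks in 14.5 kb (0.414 per kb). The nearest gene upstream is Gm29611, a non-coding gene 5.96 kb away on the other strand with no peak. The nearest protein-coding genes are Acsl3, an acyl-CoA synthetase gene 48.3 kb upstream, and Mogat1, an acyltransferase gene 56.9 kb downstream. Its first 5 peaks lay in its only intron. The sixth, 2048 bases wide, covers most of the last exon and runs past the annotated end, from 78596779 to 78594732 against a gene end at 78595031. A peak of 372 bases on the opposite strand lay 6.24 kb from the start, opposite the second sense peak.

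The density of these genes is set beside that of the other non-coding genes with peaks in the plot of peaks against length. A peak was found in 827 of 10155 long non-coding genes (8.14%), at least 5 peaks in 54 (0.532%) and at least 12 in 11 (0.108%). The rule used these counts, so nothing is read from them. Neither count nor density alone separates the set, since 4 of these 11 genes are outside it: AC174800.1 and Airn with 21 peaks each, Kcnq1ot1 with 19 and Pvt1 with 14. Of the 21 peaks of AC174800.1, 15 also lay in another gene of the strand. The lowest counts among the genes taken for their number were 12, in Gm2164 and Gm38825, and the next lower counts outside the set were 10, in 4732471J01Rik and AC174471.1. By density among genes with at least 5 peaks, Platr4, with 5 peaks in 9.17 kb (0.545 per kb), was above both short genes and is not in the set. Below 5730419F03Rik (0.414 per kb) came Gm11520 (0.355) and Gm48293 (0.325), also outside it. Among genes with at least 10 peaks, the 3 closest to the median of the 9 by count and length, of 6 compared, were 4732471J01Rik (10 peaks, 190 kb), Airn (21, 119 kb) and Kcnq1ot1 (19, 93.1 kb). Airn and Kcnq1ot1 are imprinted antisense transcripts. The peaks of 4732471J01Rik and Airn were all intronic, and those of Kcnq1ot1 all exonic, since it is annotated as unspliced.

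**Figure D2:**
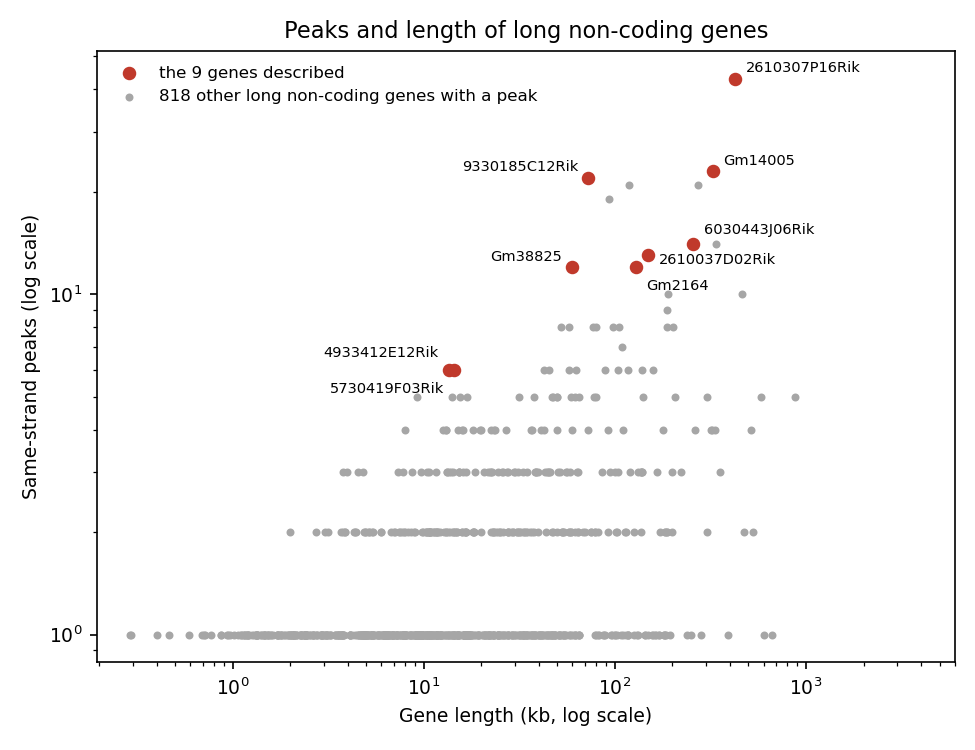
Number of same-strand SAFB peaks against gene length in kb, both on log scales, for the 9 genes (red) and the 818 other long non-coding genes with at least 1 peak (grey). 2610307P16Rik stands highest with 43 peaks, and 5730419F03Rik and 4933412E12Rik, with 6 peaks each, are short for their count.

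Exons took 1.99% of the peaks of the 9 genes (3 of 151, 95% Wilson interval 0.678 to 5.68%) and 1.84% of their length. In the 45 other long non-coding genes with at least 5 peaks, exons took 15.2% of peaks (50 of 329, 11.7 to 19.5%) and 4.10% of length. A peak in more than 1 of these 45 genes was counted for each, so the 329 stand for 322 distinct peaks. Kcnq1ot1 alone held 19 of those 50. Without it, a setting chosen after its value was seen, the share was 10.0% (31 of 310, 7.13 to 13.8%) against 2.64% of length. These intervals take peaks for independent draws and hold counting error alone, and the difference between the sets was not tested. Genes with at least 1 exonic peak were 3 of the 9, against 44.4% of the 54 with at least 5 peaks. A further 6 intronic peaks of the 9 genes touched an exon with at least 1 base. Counting them, 5.96% of peaks were exonic.

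**Figure D3:**
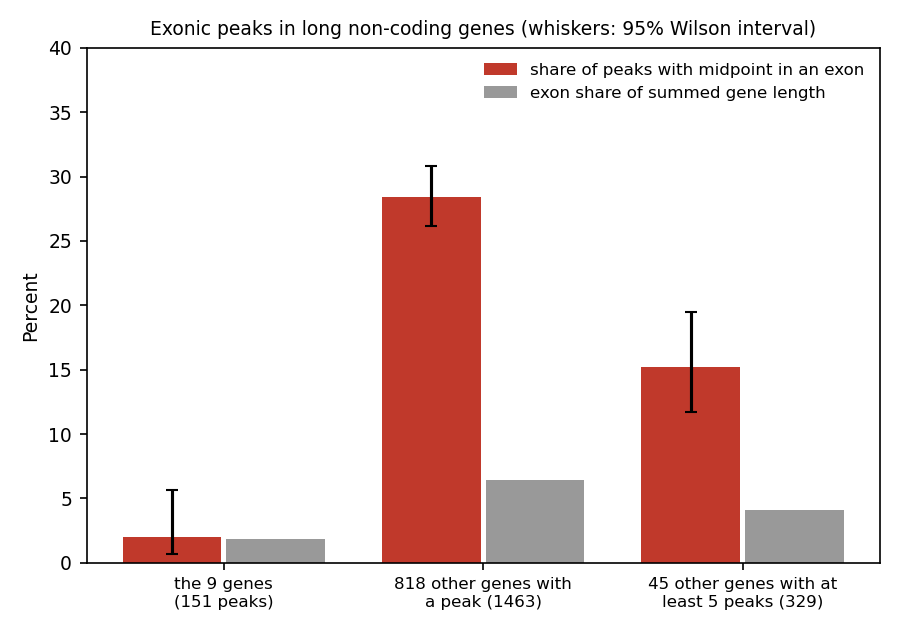
Share of peaks with their midpoint in an exon (red, whiskers 95% Wilson intervals) and share of gene length that is exon (grey), in percent, for the 9 genes, the 818 other long non-coding genes with a peak and the 45 others with at least 5. In the 9 genes the bars are nearly level, at 1.99 and 1.84%, while in the 818 others they stand at 28.4 and 6.45%. The sets are unlike in structure: the 818 genes had a median length of 14.2 kb and a median of 1 peak, the 9 genes 128 kb and 13 peaks.

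Most intronic peaks were far from exons. Their median distance to the nearest annotated exon was 10.6 kb (quartiles 4.13 and 23.0 kb), and 78 of 148 (52.7%) were over 10 kb away. Only 11 (7.43%) lay within 1 kb. The farthest, at 61.2 kb, was in Gm2164, whose single intron is 128 kb long. Exons make up 1.84% of the length of the 9 genes, so most positions in them are intronic. The same distances were not computed for other genes or for positions without a peak. These values therefore describe where the peaks lie and show no preference.

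Neighbouring peaks within a gene were a median of 4717 bases apart (142 gaps, quartiles 1403 and 10544). The same value in the 45 other genes was 4023.5 bases (284 gaps, quartiles 923 and 9882), with gaps shared by overlapping genes counted for each gene. Medians of single genes ran from 854 bases in 4933412E12Rik and 1061 in 5730419F03Rik to 9753 in 6030443J06Rik. Every one of the 9 genes had a pair of peaks less than 500 bases apart, the closest 315 bases in 9330185C12Rik. The smallest distance between peaks of 1 strand in the whole list is 305 bases. The peak names carry running numbers that rise along each strand and skip, and if every number is 1 call, the list kept 85.7% of the calls from the first to the last peak of 4933412E12Rik and of 5730419F03Rik, but 19.6% of those in 2610307P16Rik. The median over the 9 genes was 38.3%, against 35.3% over the 45 others.

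**Figure D4:**
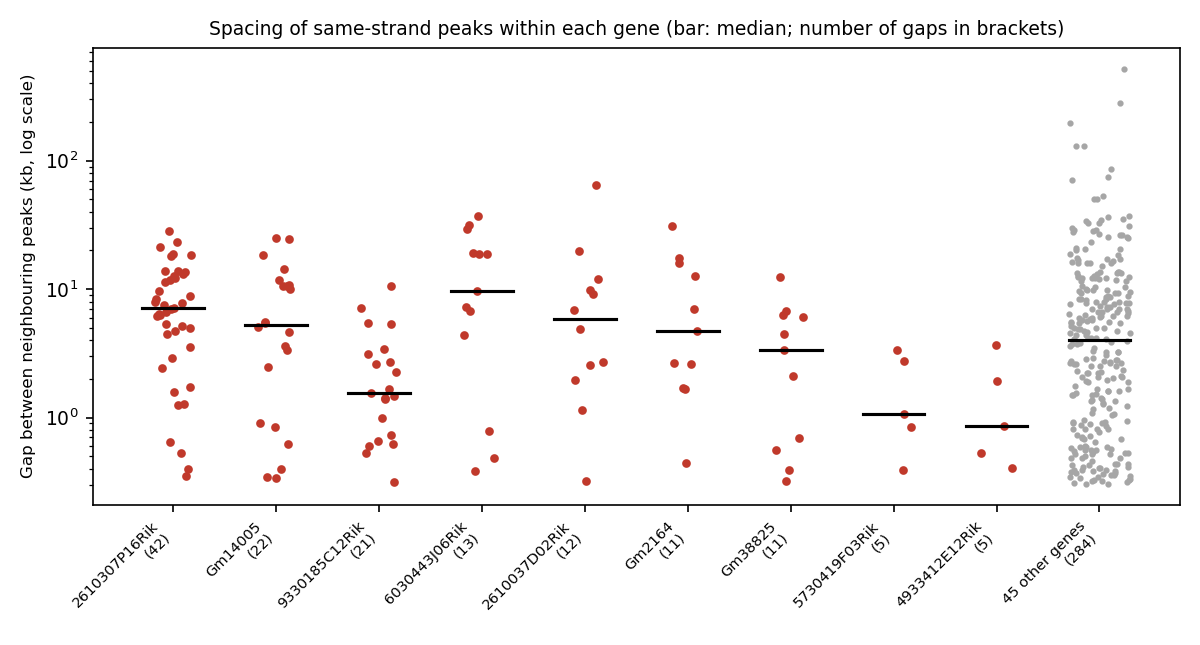
Gaps between neighbouring same-strand peaks in kb on a log scale, 1 point a gap, for each of the 9 genes (red) and pooled over 45 other long non-coding genes with at least 5 peaks (grey), with bars at the medians. Gaps are shortest in 4933412E12Rik (median 854 bases) and longest in 6030443J06Rik (9753 bases), and single gaps span a wide range in most genes.

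Widths varied widely within every gene. The 151 peaks had a median width of 579 bases (quartiles 307.5 and 1023.5), against 675 in the 45 other genes and 596 in the whole list. The range within 1 gene was widest in 2610307P16Rik, from 75 to 3004 bases. Medians ran from 336 bases in 4933412E12Rik to 966 in 2610037D02Rik. Among the 151 peaks, 6 (3.97%) were at least 2 kb wide, against 6.21% in the 45 others and 4.78% in the whole list.

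**Figure D5:**
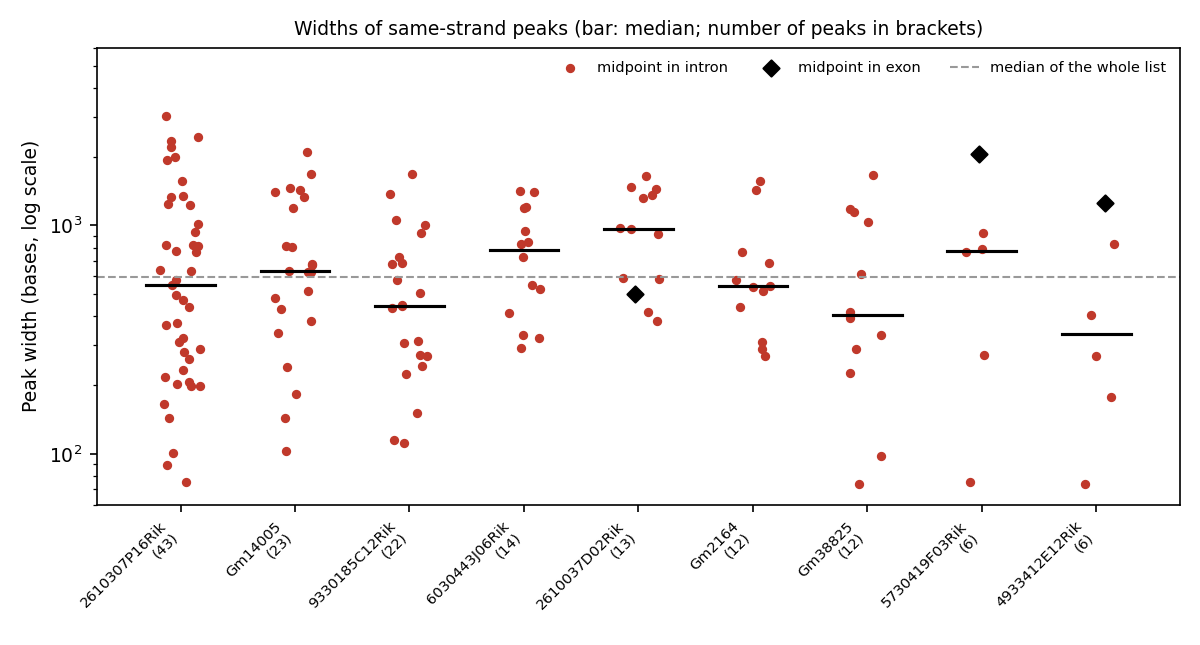
Width in bases, on a log scale, of each same-strand peak in the 9 genes, with bars at gene medians, black diamonds for the 3 peaks with midpoint in an exon and a dashed line at the median of the whole list (596 bases). The exonic peaks of 5730419F03Rik and 4933412E12Rik are the widest of their genes, at 2048 and 1251 bases, and that of 2610037D02Rik, at 501 bases, is below its gene's median of 966.

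On the opposite strand the bodies of the 9 genes held 6 peaks, 3 in 2610037D02Rik, 2 in Gm14005 and 1 in 5730419F03Rik. Sense peaks thus made up 96.2% of peaks in these bodies (151 of 157, interval 91.9 to 98.2%), against 84.4% in the 45 other genes (80.4 to 87.6%). The choice of genes with many sense peaks raises this share in both sets, and the 9 genes had more of them (median 13 against 6). The intervals take peaks for independent draws, and the difference was not tested, so nothing is read from it. At least 1 opposite-strand peak was found in 3 of the 9 genes, against 48.1% of the 54. In Gm14005 they were 2440 and 1144 bases wide, 262 and 236 kb from the gene start, and no gene of their strand is annotated there. The wider one overlaps the last sense peak of Gm14005 (chr2:128239810-128240433). That sense peak lies just upstream of the start of Gm14012, a non-coding gene on the same strand, so its assignment to Gm14005 is less sure.

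A run of peaks was followed past an end as long as the next same-strand peak came within 10 kb. Past the 3′ end, such runs had 1 peak in 9330185C12Rik, 663 bases beyond the end and 772 bases wide, and 1 in Gm2164, 254 bases beyond the end and 400 bases wide. Neither lies in another gene of that strand. The other 7 genes had none, so 2 of 9 had a run, against 40.7% of the 54 genes with at least 5 peaks. This count depends on the 10 kb: with gaps of up to 20 kb, 5730419F03Rik had a run of 3 peaks as well, so 3 of 9 genes had one, against 46.3% of the 54. The sixth peak of 5730419F03Rik, counted inside the gene by its midpoint, itself runs past the annotated end. RefSeq's model of Gm2164 ends at 124522925, so the peak past the GENCODE end of Gm2164 (chr4:124528471-124528870) lies inside that model.

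Within 50 kb, a window chosen after the data were seen, 5730419F03Rik had 3 further sense peaks at 12.7, 19.5 and 26.4 kb past its end and 2610307P16Rik had 1 at 23.8 kb, none of them in an annotated gene of the strand. In all, 4 of the 9 genes had a sense peak within 50 kb downstream, against 53.7% of the 54. Upstream, none of the 9 had a sense peak within 50 kb of the annotated start, against 29.6% of the 54 (16 genes). The difference was not tested. First peaks lay from 0.293 kb (2610037D02Rik) to 22.1 kb (Gm2164) downstream of the nearest transcript start.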

How the data were processed

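The deposited list holds 30998 peaks in 6 columns without a header. Its score column, as the authors deposited it, is 500 throughout and was not used. The submitters' processing notes name mm10, STAR, Subread and featureCounts. Not given in the sources used here are the peak caller, pooling and filters, so how they shape widths and gaps is unknown. Peak starts were taken as counted from 0. The planned count test between antibodies and genotypes needs values per library and was not run. Peaks were placed by midpoint in GENCODE M21 gene bodies of the same strand (GRCm38), with exons of all transcripts merged. RefSeq models came from GRCm38.p6, where 7 of the 9 genes matched on the same chromosome. Long non-coding genes were those of 8 GENCODE types. Shares have 95% Wilson intervals (scipy 1.17.1). Placement was run on simulated peaks with midpoints drawn inside genes. Their exonic counts came from the same exon rule, so this could not show an error in that rule or in the counting of starts. The rule named all 9 genes, genes that overlap or neighbour them, genes of runs past their ends, and the 3 most alike non-coding genes. Others are named where a value turns on them. Not every overlapping or neighbouring gene is described above. Left out, for example, are 3100002H09Rik, a protein-coding gene inside Gm2164 on its strand, and A930003O13Rik, opposite peak 13 of 6030443J06Rik. The genes, motifs and lists were chosen with earlier results of these data known. Alternatives for placing, joining and filtering peaks are listed in the closing section.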

Additional observations from a re-analysis of the deposited data

How the results depend on the processing

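Counts of peaks hardly depended on how peaks were placed. The 151 peaks of the 9 genes became 151 with any overlap, 150 with whole peaks in the body, and 120 with peaks under 1 kb apart joined. Dropping peaks narrower than the list median (596 bases) left 73, and 1 of the 2 peaks past 3′ ends, and 8 of 9 gene counts moved by over 1.5 times. Joining moved 1 gene count so far, that of 4933412E12Rik (3 in place of 6). The exonic share was 5.96% with any base in an exon and ran from 1.38 to 2.78% with each gene left out. Peaks past 3′ ends numbered 5 with gaps of up to 20 kb, the added 3 all in 5730419F03Rik, and 1 without 9330185C12Rik or without Gm2164. The median gap ran from 3373.5 to 5469 bases, and the sense share from 94.7 to 97.9%, with each gene left out. No paired analysis was possible because the list has no value per library. Depth behind each peak is unknown, and an absent peak does not show an absent RNA.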
